A study of Mus musculus with 6 samples.

Results

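H2-Q7 is a mouse class I histocompatibility gene, and a single probe on a circular RNA (circRNA) array reads its messenger RNA. The probe, A_51_P262079, was found by its name in the scanner tables, where it filled 10 spots on each of 6 arrays. These are 60 of the 91056 spots that are not scanner controls. The gene was chosen by measured values of these arrays, namely its scaled signal, which had been seen to lie higher on each array of lasered eyes than on any array of unlasered eyes. That contrast is therefore described here without a test.

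Class I histocompatibility molecules hold short peptides from inside the cell and display them on the cell surface, where CD8 T cells and natural killer cells can inspect them. They are made by most nucleated cells, and interferons raise their transcription. H2-Q7 belongs to the Q region of the mouse complex and encodes a form of Qa-2, a non-classical class I antigen that is held on the membrane by a lipid anchor. The eye is commonly described as an immune-privileged organ.

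The study used male mice and took the outer coats of the eye as 1 complex: sclera, choroid and the retinal pigment epithelium (RPE). The CNV group had laser-induced choroidal neovascularization, in which vessels grow from the choroid after laser injury, and comprised 3 samples taken 7 days after the laser. Each lasered eye received 25 burns, each 50 µm wide and lasting 0.1 s, from a 532 nm laser set to 100 mW. The control group comprised 3 samples from normal, age-matched mice that had received no laser. Strain and age were not given in the sources used here. Nothing in the labels says that each sample came from its own animal, so the spread between samples may be partly technical. RNA of all samples was exposed to RNase R, which degrades linear but not circular molecules, before random-primed amplification and Cy3 labelling. An mRNA probe on such an array reads what is left of a linear transcript, or circular or unspecific RNA that binds it. Which of these gave the H2-Q7 signal was not tested. Fewer cells carrying the transcript and less transcript per cell cannot be told apart in such bulk samples.

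The array names the target of the probe by the RefSeq accession NM_010394, which matched H2-Q7 among the genes RefSeq lists for GRCm38.p6. On chromosome 17 the gene lies between H2-Q6, another class I gene, and the pseudogene Gm8752, followed by the class I gene H2-Q10. The table lists Q9 and Qa-2 among the other names of H2-Q7. Genes of the Q region resemble each other closely, and the probe sequence was not used here, so how far the probe separates H2-Q7 from its relatives is uncertain.

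The start of the gene is shown because it carries the control elements by which class I genes are known to be regulated. The array did not measure it. The sequence below is the RefSeq promoter entry of H2-Q7, chr17:35438905-35439204 on the plus strand of GRCm38.p6. It spans 250 bases before to 50 bases after the listed start, and capitals mark the motif matches given after it.
H2-Q7 promoter: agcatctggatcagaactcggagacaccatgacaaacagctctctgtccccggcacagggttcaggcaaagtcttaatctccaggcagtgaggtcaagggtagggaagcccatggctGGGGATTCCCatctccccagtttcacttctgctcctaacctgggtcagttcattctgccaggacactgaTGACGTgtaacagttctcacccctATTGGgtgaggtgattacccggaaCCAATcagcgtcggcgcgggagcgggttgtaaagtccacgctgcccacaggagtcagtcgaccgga

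Both strands were searched for exact letters, and no matches overlapped. A kappa B motif, the kind of site that NF-kappa B proteins bind, stood at bases 118 to 127 counted from the first base shown, and its letters are the first run of capitals. The same letters occur in 35 of 32851 promoter entries of the same length (0.107%). The core of a cyclic AMP response element, TGACGT, stood at bases 187 to 192 and occurs in 7.51% of entries. The CCAAT box was found at bases 211 to 215, read on the opposite strand, and at bases 235 to 239, and occurs in 37.4% of entries. The interferon-stimulated response element was searched only as TTTC, any 2 bases and TTTC again. That spelling had 0 matches in these 300 bases and occurs in 3.44% of entries. Near matches, such as the letters tttcacttct that follow the kappa B motif, were not counted. The 0 therefore does not show that the promoter lacks such an element. All matches given here are matches of letters, not measured sites.

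The processed signal of the H2-Q7 spots, a linear brightness after background subtraction, was higher on all 3 CNV arrays than on any control array. On control 1 the lowest, median and highest of the 10 spots were 185, 193 and 200.4. On control 2 they were 128, 133 and 143, and on control 3 they were 157, 168 and 186. Control 2 was the dimmest array of all, and the 3 control ranges touched only between controls 1 and 3. On CNV 1 the spots ran from 223 through a median of 227 to 288. On CNV 2 the lowest, median and highest were 324, 336 and 348, and on CNV 3 they were 360 (median 371, highest 420.3). CNV 1 thus lay close to the controls, and CNV 2 and CNV 3 lay well above it. The dimmest CNV spot was 1.11 times as bright as the brightest control spot. Spots of an array are repeat readings of 1 sample, so this restates the order of the arrays and is no separate support.

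**Figure D1:**
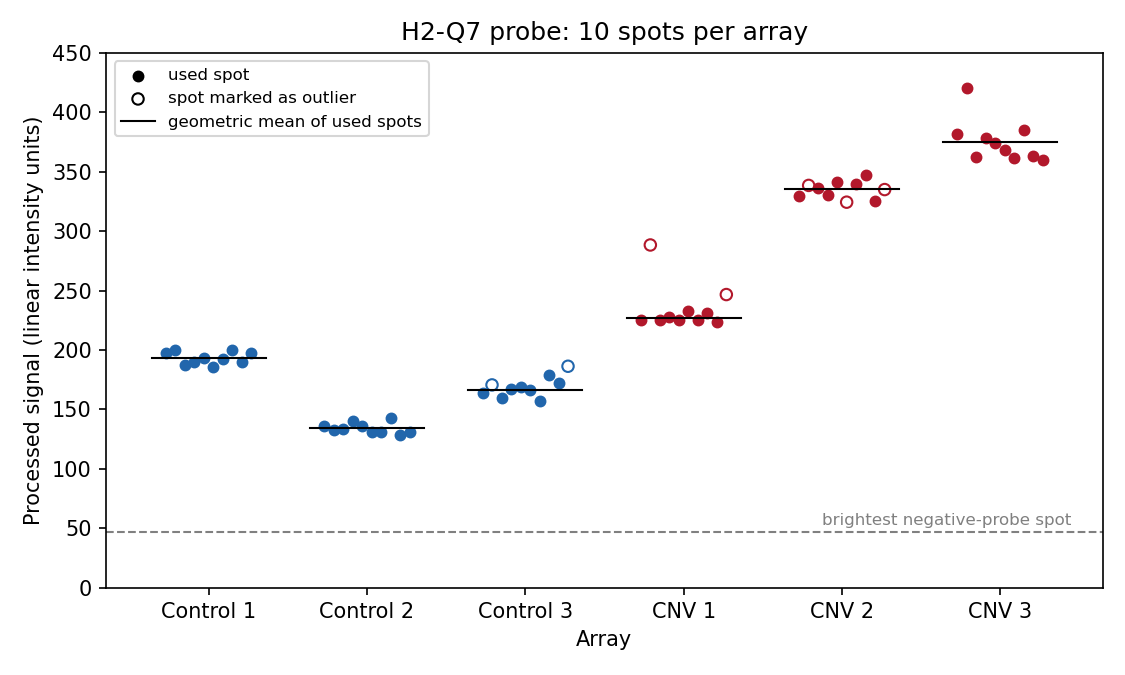
Processed signal of each of the 10 H2-Q7 spots (vertical axis, linear intensity units from 0) on the 3 control arrays (blue) and the 3 CNV arrays (red), with open circles for spots marked as outliers and black lines for the geometric mean of the used spots. The control means run from 134 to 193 and the CNV means from 227 to 375, all above the brightest spot of any negative probe at 46.9 (dashed line).

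Every one of the 60 spots was marked well above background by the scanner software, and 0 were saturated. The unsubtracted spot brightness was a median of 16.4, 11.4 and 13.4 times the local background on controls 1 to 3. It was 19.2, 27.9 and 27.7 times the background on CNV 1 to 3. The spots were therefore above the local background and below saturation on each array.

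The spots of an array agreed closely with one another. Outlier marks fell on 2 spots of control 3, 2 of CNV 1 and 3 of CNV 2, and these 7 spots were left out of the means. Among the used spots the coefficient of variation was 2.72%, 3.40% and 4.09% for the controls and 1.45%, 2.26% and 4.84% for CNV, in replicate order. On the log2 scale the SD among spots averaged 0.0446 over the 6 arrays. The median of the same average over the other 44 kept mRNA probes was 0.0939, so the H2-Q7 spots varied less than those of the median probe.

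Over the 3 arrays of a group, the SD among spots averaged 0.0488 ± 0.0097 (SD, n = 3) for controls and 0.0403 ± 0.0244 (SD, n = 3) for CNV. CNV thus differed by -0.0085, which did not exceed the spread of the arrays within a group (exact permutation test, two-sided, p = 0.7; Benjamini-Hochberg p = 0.8 over 2 tests). With the outlier spots kept, the sign of this difference turned to 0.0171, because CNV 1 then included its spot at 288. The local background around the spots was 13.4 ± 0.52 (SD, n = 3) for controls and 13.2 ± 0.76 (SD, n = 3) for CNV, a difference of -0.25 intensity units (two-sided exact permutation p = 0.8; Benjamini-Hochberg p = 0.8). With 3 against 3 arrays neither test can give a p under 0.1.

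Some positions on the array read slightly higher than others. The 10 positions are the same on every array. The spot in row 115 and column 19 was above its array's mean on 6 of 6 arrays, by 0.06 log2 units on average. The spot in row 40 and column 74 was above on 5 of 6, by 0.10 on average, reached 0.34 on CNV 1 and carried an outlier mark on 3 arrays. The other 8 positions averaged between -0.03 and 0.04. The offsets were small beside the scaled differences of CNV arrays from controls 2 and 3, which ran from 0.76 to 1.23. The differences from control 1 ran from 0.13 to 0.22, and the CNV arrays differed by at most 0.09 after scaling. These are differences of means over spots at the same positions, so an offset shared by all arrays largely drops out of them. The gap between control 1 and CNV 2 was 0.13 with outlier spots left out and 0.12 with them kept. It was 0.13 with the median over spots.

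After each array was scaled, the difference between the groups shrank and the CNV arrays drew together. Scaling subtracted the 75th percentile of log2 signal over all probes that are not scanner controls. That percentile corresponds to an intensity of 77.2, 108 and 103 for the controls in order, and of 77.8, 123 and 129 for the CNV arrays, so CNV 2 and CNV 3 were also the brightest arrays as a whole. The scaled log2 signal of H2-Q7 was 1.32, 0.32 and 0.69 on controls 1 to 3. It was 1.54, 1.45 and 1.54 on CNV 1 to 3. All CNV values lay above all control values, but control 1 came within 0.13 of CNV 2.

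The control mean of the scaled log2 signal was 0.78 ± 0.51 (SD, n = 3) and the CNV mean 1.51 ± 0.05 (SD, n = 3). The difference, CNV minus control, was 0.74 ± 0.30 (SE), or 1.67-fold. Over the 9 pairs of a CNV and a control array the differences ran from 0.13 to 1.23 with a median of 0.85. Against control 1 alone the 3 CNV arrays were higher by 0.22, 0.13 and 0.22. Against control 2 they were higher by 1.23, 1.14 and 1.23. With this scaling, the size of the difference thus depended on which control array it was set against and hardly on the CNV array. Leaving out control 1 raised it to 1.01, and leaving out control 2 lowered it to 0.51.

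The place of the arrays on the slide, inferred from the barcode field of each file header, went partly with the groups. Its leading number was read as the slide row, a name that no label gives. The 3 controls and CNV 2 lay in slide row 1, while CNV 1 and CNV 3 lay in row 2, where there was no control. Within row 1 CNV 2 exceeded the control mean by 0.68, and adding slide row to the model gave the same 0.68, which rests on CNV 2 alone. Slide row and group cannot be told apart for CNV 1 and CNV 3.

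Other probes were read for the same separation of the groups. Of 45 kept mRNA probes 4 had their lowest CNV value above their highest control value (8.89%), namely Lhfp, Apoe, Cep41 and H2-Q7. Over all 13436 kept probes the share was 7.1%. The gap between the lowest CNV and the highest control value was 0.72 for Apoe, a lipid-carrying apolipoprotein, 0.36 for Lhfp, a tetraspan membrane protein, and 0.02 for Cep41, a centrosomal protein, against 0.13 for H2-Q7. Without control 1 the number of separated mRNA probes was 21, where the share over all kept probes was 21.4%. Without CNV 1 it was 10, where that share was 17.4%. A limma fit over all 13436 kept probes called 0 at an adjusted p of 0.05 (0%), H2-Q7 included, and 780 (5.81%) at an unadjusted p under 0.05. The second count was 1332 with the replicate number as a block. Since the gene was chosen for this contrast, nothing is read from its place among these counts.

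Which scaling was used decided whether the groups separated at all. With each array centred on its median, control 1 stood at 2.73 and CNV 2 at 2.67 on the scaled log2 axis, so the groups overlapped by 0.06, while the difference of the means was 0.70. With no scaling between arrays the difference was 0.91 and the gap 0.23. Quantile normalization gave 0.79 with a gap of 0.27. Normexp background correction followed by quantile normalization gave 0.61 with a gap of 0.19. Controls 2 and 3 lay below every CNV array under each of the 6 scalings.

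**Figure D2:**
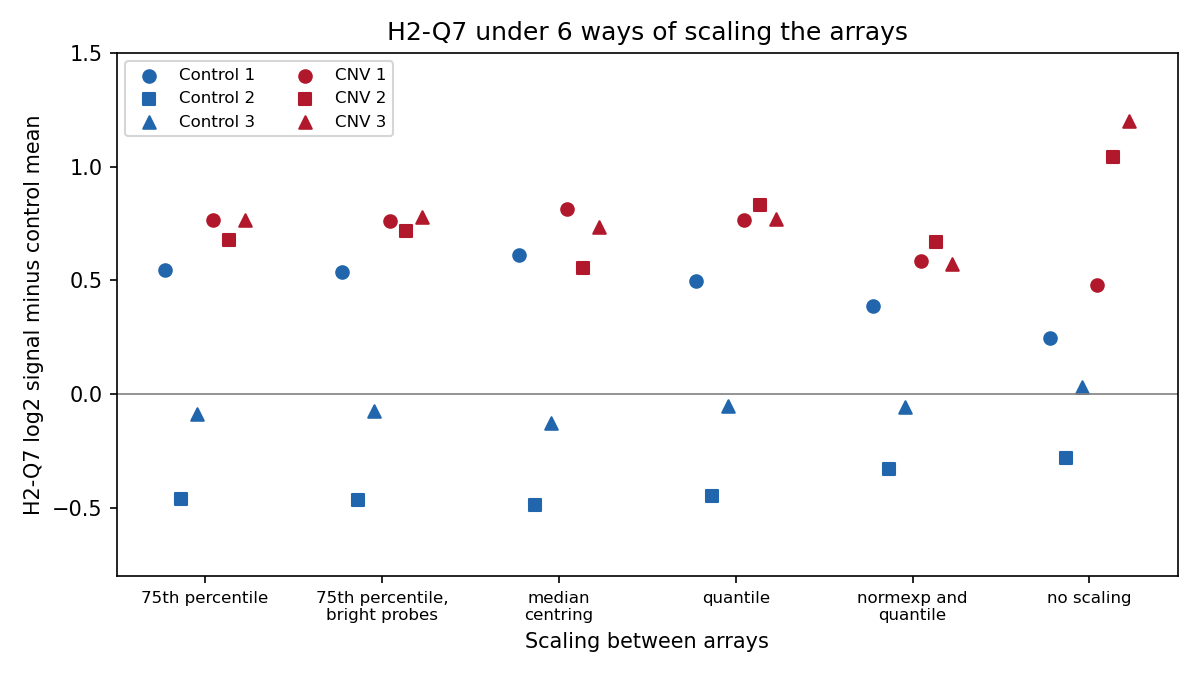
H2-Q7 log2 signal of each array minus the mean of the 3 control arrays (vertical axis) under 6 ways of scaling the arrays (horizontal axis), with controls in blue, CNV in red and marker shapes for replicate numbers. The CNV arrays lie above controls 2 and 3 in each column, and control 1 lies above CNV 2 with median centring.

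Compared within each array with the other mRNA probes, H2-Q7 stood higher in CNV. This subtracts 1 value per array, so it is another scaling of the signal by which the gene was chosen. It is a description and no separate support. Its log2 signal exceeded the median of the other 44 kept mRNA probes by 2.37, 1.69 and 1.98 in the controls and by 2.68, 2.51 and 2.53 on CNV 1 to 3. The difference between the groups was 0.56 ± 0.21 (SE, n = 3 per group), with no overlap. Of those 44 probes 39 had a higher mean in CNV, with a median difference of 0.14, and 4 had a larger difference than H2-Q7. These 4 were Lhfp at 2.18, Apoe at 1.16, Mbp, a myelin protein, at 0.95, and Actb, cytoskeletal beta-actin, at 0.81. The share of all kept probes with a higher mean in CNV was not counted. With H2-Q7 included, 40 of 45 kept mRNA probes were higher in CNV, against 36 with median centring and 43 without scaling. With 1 array left out the count ran from 32 to 41. The array's 14 circRNA control probes went the other way, with 13 lower in CNV and a median difference of -0.70. Whether leftover linear RNA differed between the groups was not tested.

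The negative probes, named MM9NEGATIVE, gave the floor against which the H2-Q7 signal can be judged. There are 15 of them with 10 spots each. Of their 150 spots per array, 0 reached the dimmest H2-Q7 spot on any array, and the brightest negative spot anywhere was 46.9. H2-Q7 was 5.28, 4.73 and 4.58 times as bright as the brightest negative probe on controls 1 to 3. It was 5.55, 8.64 and 10.9 times as bright on CNV 1 to 3. Above the median negative probe it stood by 5.60 ± 0.31 log2 units (SD, n = 3) for controls and 6.48 ± 0.25 (SD, n = 3) for CNV. The negative probes themselves had a median difference of -0.04 between the groups, with 7 of 15 higher in CNV and a range from -0.55 to 0.23. Of the 15, 4 to 7 were marked well above background on an array, so that mark alone does not show a transcript.

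**Figure D3:**
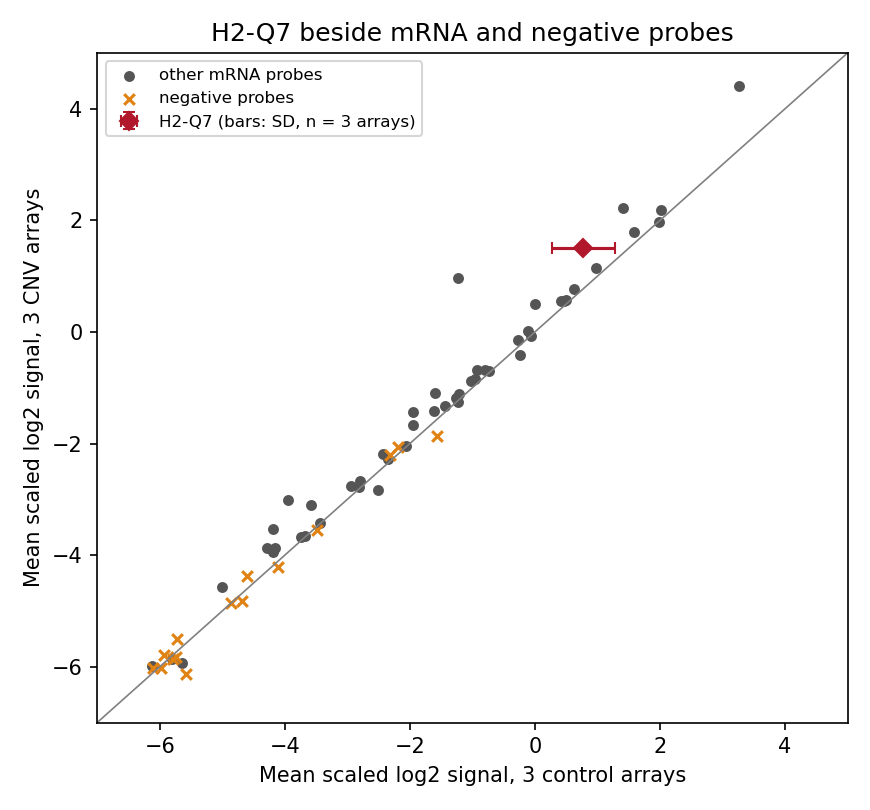
Mean scaled log2 signal on the 3 CNV arrays (vertical axis) against the 3 control arrays (horizontal axis) for the 50 mRNA probes and the 15 negative probes, with bars of 1 SD for H2-Q7 and a line of equal signal. H2-Q7, at 0.78 and 1.51, lies above the line and away from the negative probes, with a wide bar across the controls and a narrow bar across CNV.

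In brightness H2-Q7 was among the upper mRNA probes, ranking 6, 10 and 7 of 50 for the controls and 6, 7 and 7 for CNV, in replicate order. Brightness also depends on the probe, so these ranks do not order the genes by RNA amount. The next brighter probes in mean signal over the 6 arrays were that of the accession XM_006525458 (mean scaled log2 signal 1.69), Actb (1.82) and Pex11a, a peroxisome division protein (1.98), and H2-Q7 stood at 1.14. The next dimmer were the olfactory receptor gene Olfr166 (1.06), Gpi1, the glycolytic glucose-6-phosphate isomerase (0.70), and Gamt, a creatine synthesis enzyme (0.54). Olfr166 differed from H2-Q7 by less than the spread of either among controls, at SDs of 0.29 and 0.51. H2-Q7 was brighter than 78.2% to 88.8% of the 13358 kept circRNA probes on control arrays and than 90.9% to 91.4% of them on CNV arrays.

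The 3 CNV arrays gave nearly the same scaled signal and the 3 controls did not. The SD of the scaled log2 signal was 0.51 in controls and 0.05 in CNV. Among the other 44 kept mRNA probes the median SD was 0.28 in controls and 0.18 in CNV, and 28 of the 44 had the smaller SD in CNV. The contrast in spread moved with the scaling and with control 1. The SDs of H2-Q7 were 0.56 and 0.13 with median centring, 0.36 and 0.05 with normexp and quantile normalization, and 0.27 and 0.38 without scaling, controls first. Without control 1 the control SD was 0.26. Of these probes 8 had a larger control SD than H2-Q7, among them Gpi1 (0.51), Ppara, a nuclear receptor for fatty acids (0.61), and Hspb7, a small heat shock protein (0.87). Hyal3, a hyaluronidase, Gsdmd, the pore-forming gasdermin D, and the probe AK004226 had a smaller CNV SD, at 0.03, 0.04 and 0.04. In unscaled intensity the SD was 29.7 in controls and 76.7 in CNV, where the means were 165 and 313.

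**Figure D4:**
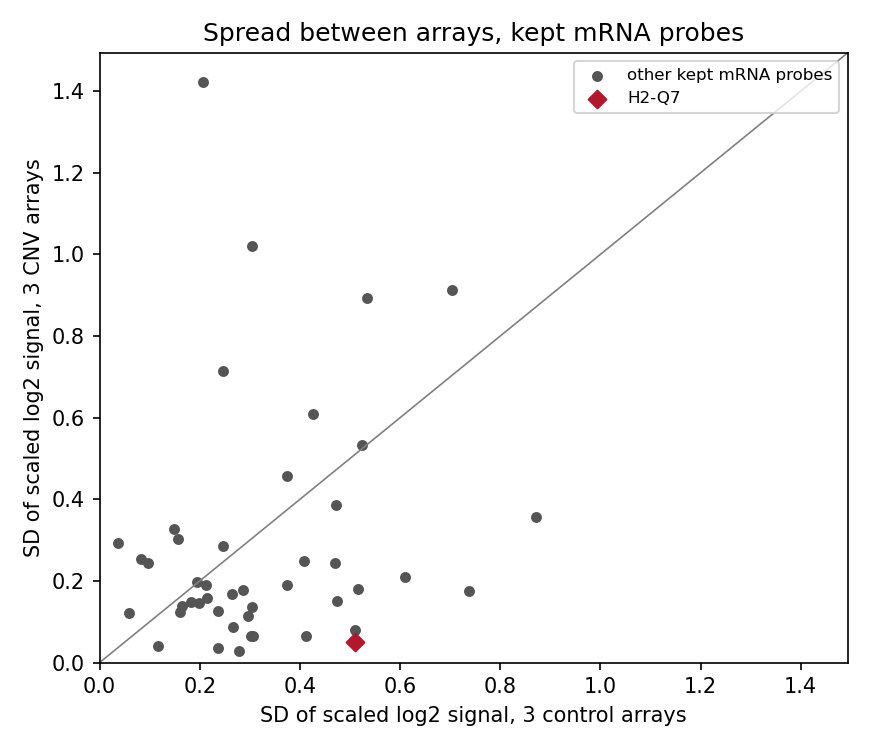
SD of the scaled log2 signal over the 3 CNV arrays (vertical axis) against that over the 3 control arrays (horizontal axis) for the 45 kept mRNA probes, with a line of equal SD. H2-Q7, at 0.51 and 0.05, lies low and to the right, and 28 of the other 44 probes also lie below the line.

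The spread between control arrays, at an SD of 0.51 log2 units, exceeded the reading error of the spots, whose pooled SD was 0.047. The SD of 0.05 between CNV arrays was about as large as this SD of single spots. Each CNV value is a mean over 7 to 10 used spots, however, and a mean has a smaller reading error than 1 spot. This likeness therefore does not show that only reading error separates the CNV arrays. The number of arrays, not the number of spots, therefore limits what can be said of the groups.

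The named mRNA probes whose values followed H2-Q7 most closely over the 6 arrays were Cpt1a, which admits fatty acids to mitochondria (Pearson's r 0.91, Spearman's rho 0.71), and Apoe (0.90 and 0.83). Next came Mzb1, a chaperone of antibody-making B cells (0.90 and 0.49), Actb (0.87 and 0.71) and the T cell cytokine Il2 (0.86 and 0.66). The scaled log2 signal of Cpt1a was -1.46, -2.40 and -1.97 for controls and -1.42, -1.19 and -1.67 for CNV, in replicate order, with control 1 level with CNV 1. That of Mzb1 was -1.31, -1.92 and -1.60 on controls and -1.46, -1.45 and -1.34 on CNV. Each of these 5 was lowest on control 2, as H2-Q7 was.

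These likenesses were read again without controls 2 and 3, the arrays farthest from the median of H2-Q7. Without both, r was -0.25 for Cpt1a, -0.53 for Mzb1, 0.00 for Actb, -0.40 for Il2 and 0.73 for Apoe. On the arrays left, H2-Q7 ran only from 1.32 to 1.54. So narrow a range over so few arrays can by itself lower r. The values therefore do not show how far the likenesses rested on controls 2 and 3. Among the kept mRNA probes with a gene symbol, those least like H2-Q7 were Rps4l, a ribosomal protein S4-like gene (r -0.80), Taf1a, a subunit of a polymerase I factor (-0.52), and Atg3, an autophagy enzyme (-0.23). The median r was 0.58 over the other 44 mRNA probes and 0.13 over the 13358 circRNA probes, of which 2.62% exceeded 0.9. All probes of an array share its RNA sample and its scaling, so these values are descriptions of 6 arrays.

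No other gene of class I presentation could be set beside H2-Q7. Of 40 genes of class I antigen presentation and interferon response only H2-Q7 itself had a named probe. Of 38 markers listed for cell types that the tissue could hold 3 had a named probe. These were Tyr, listed for melanocytes, Mbp, listed for Schwann cells, and Apoe, listed for glia. Whether these genes are confined to the listed cell types in this tissue was not tested. The markers listed for RPE, endothelium, macrophages, T and NK cells, fibroblasts and photoreceptors had 0 named probes. The tissue label and the number of immune cells therefore could not be checked through the mRNA probes. Tyr, the tyrosinase of melanin synthesis, was well above background on 3 of 6 arrays, with scaled log2 signals of -3.78, -4.53 and -4.24 on controls and -4.02, -3.12 and -3.43 on CNV. Mbp was well above background on 4 of 6 arrays and was highest on CNV 2, at -1.85, against -3.36 and -3.79 on CNV 1 and CNV 3 and a control mean of -3.95. Apoe had scaled log2 signals of 3.54, 2.83 and 3.39 on controls and 4.35, 4.63 and 4.27 on CNV. The part of cell makeup in the H2-Q7 signal was not tested.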

How the data were processed

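RNA from 3 CNV and 3 control samples was read on 1-colour arrays. They were taken to lie on 1 slide with 1 scan, since their headers give the same scan date. Per the file headers, the deposited values are spot intensities from Agilent Feature Extraction 11.0.1.1, background-subtracted and detrended within each array. The deposited table of circRNA values was not used here, since it holds no mRNA probe. From the processed signal, log2 values of a probe's spots were averaged without those that the scanner software marked as outliers (of the population or non-uniform), and each array's 75th percentile was subtracted. A probe was kept when at least 0.5 of its used spots were well above background on at least 3 of 6 arrays, which kept 13436 of 14330 probes, 45 of 50 mRNA probes and 4 of 15 negative probes. RefSeq accessions, compared without versions, named 44 of the 50. The group difference was fitted with limma (version 3.58.1, under R 4.3.3), tested on simulated data, with Benjamini-Hochberg adjustment over all kept probes. Spot measures were compared with exact permutation tests in scipy 1.17.1. Correlations of deviations from group means, over circRNA probes, were 0.41, 0.18 and 0.17 for the pairs of equal replicate number. All exceed 0.1, so a fit with that number as a block was set beside the other. The replicate numbers come from the sample titles, which do not say that samples of equal number were paired. Pairs of unequal number were not compared, so these correlations do not show a pairing. The gene, the gene lists and the tests were chosen with earlier results of these data known. Genes named were H2-Q7, of the kept mRNA probes with a gene symbol the 5 most and 3 least correlated with it, the 3 next brighter and dimmer, and listed genes with a probe. Lhfp, Cep41, Ppara, Hspb7, Hyal3, Gsdmd and AK004226 were named after their values were seen. Precision is limited by the number of arrays. Figures used matplotlib 3.10.9.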

Additional observations from a re-analysis of the deposited data

How the results depend on the processing

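The H2-Q7 difference of 0.74 ran from 0.61 to 0.91 under 10 alternatives and from 0.51 to 1.01 without any 1 array. The gene was chosen with every scaled CNV value above every control value. Leaving out 1 array therefore could not reverse the direction, and the kept direction is no separate support. The fit with the replicate block gave 0.74 again, as it must with complete pairs, and changed no call. The count of probes past an adjusted p of 0.05 was 0 under 12 alternatives and without any 1 array. The number of separated mRNA probes was 3 to 6 under 9 alternatives and 5 to 21 with 1 array left out, where fewer arrays separate more easily. The share over all probes fitted was 4.41% to 8.28% under those alternatives and 10.2% to 21.4% with 1 array left out. The number of brighter kept mRNA probes was 5 under 9 alternatives and without any 1 array, and 6 in slide row 1 alone. The difference in spread among spots was 0.0171 with outlier spots kept and ran from -0.0222 to 0.0013 with 1 array left out. That of local background ran from -0.67 to 0.083. The files hold no mean spot signal, so normexp used the median signal. A slide block was not run, since the arrays were taken to lie on 1 slide.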
